A study of Mus musculus with 18 samples.

Results

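The transcripts described here encode the proteins that load, dock and fuse synaptic vesicles and the receptors that answer the transmitter, in mouse retina after an experimental detachment. A list of 36 named genes was set: 23 of the release machinery, 10 receptor subunits, and 3 scaffold or adhesion proteins. On the array 31 of the 36 were measured, 20 of release, 9 receptor subunits and 2 of the scaffold group, among 12393 genes in all. Sv2b, Slc17a7, Rims1, Grin1 and Nrxn3 were named by no probe set of the array annotation and were not analysed here. Each gene was represented by 1 probe set, the one of highest mean over the 18 arrays, and 17 of the 31 genes had more than 1. No measured change chose the genes, but they were listed with earlier results of these data known.

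Retinas of Balb/cJ mice had been detached by a subretinal injection of 1 uL, a small blister of fluid placed between the photoreceptors and the pigment epithelium. In the 3 INS37217 groups the fluid was saline with 10 uM INS37217, a P2Y receptor agonist given to speed reattachment, and in the 3 saline groups it was saline alone. RNA was taken 2 h, 24 h or 7 d after injection, with 3 Affymetrix arrays for each agent and time. Since RNA was pooled from more than 5 retinas per array, the spread between arrays is one between pools, and no undetached retina was among the arrays analysed here. Age and sex are not given in the labels. At 24 h, by the submitters' account, the retina lay back in place but folded, and at 7 d the folds had gone while function remained below normal.

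At a chemical synapse, synaptotagmin senses calcium and triggers the fusion of a docked vesicle through the SNARE proteins, which complexins clamp and prime, while large scaffold proteins of the active zone hold vesicles and calcium channels together. Photoreceptors and bipolar cells of the retina use ribbon synapses, which release glutamate continuously and carry their own complexins and syntaxin. Transmitter is read by AMPA- and NMDA-type glutamate receptors and by GABA and glycine receptors on bipolar, amacrine and ganglion cells. The values below are log2 signals as the authors deposited them, so a difference of 1 is a doubling. A difference was called where limma's p, adjusted over all 22626 probe sets tested, was under 0.05.

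The 18 arrays were alike in median and carried a retinal signature. Rod arrestin (Sag) had the highest signals of the marker set, at 13.69 to 14.03, and the cone gene Arr3, the bipolar gene Pcp2, the amacrine gene Gad1, the ganglion cell gene Nefl and the Mueller glia gene Glul were all well up the range of the array, at percentiles of 90.7 to 98.5 of all probe sets. Other markers of the set ranged more widely. The bipolar gene Prkca was at percentile 72.6, the ganglion cell gene Thy1 at 86.6 and the Mueller glia gene Rlbp1 at 89.9. Calb2, Pde6b and Gnat1 lay above 98.5. The arrays numbered 1 stood apart. Within a group their signals correlated with those of arrays 2 and 3 at 0.9591 to 0.981, against 0.9941 to 0.9966 between arrays 2 and 3, and 9 of the 31 genes were lower and 8 higher on array 1 in all 6 groups. For Rims2 the gap averaged -0.82, and for Syn1 it averaged 0.66. The spread of all log2 values was also smaller on the arrays numbered 1, with an SD of 1.8 to 1.89 against 1.91 to 2.0 on arrays 2 and 3. Because the arrays numbered 1 deviated together across groups, the number was also fitted as a block. Each call on a probe set used that changes with the block is given with its blocked value. For 1 array of the saline 7 d group the labels also name 2 h. It correlated best with INS37217 7 d replicate 2 at 0.9945 and was kept at 7 d.

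Over the 9 comparisons of times and treatments 8 of the 31 genes were called at least once, all of them between times. In INS37217 retinas at 24 h against 2 h, the AMPA receptor subunit Gria1 rose and 5 genes fell: the vesicle glycoprotein Sv2a, Cplx3, Pclo, the priming factor Unc13a and the AMPA subunit Gria2. These 6 were 19.4% of the 31 genes, against 6.52% of all probe sets, of which 3.23% rose and 3.3% fell. In saline retinas over the same interval Gria1 and synaptotagmin 1 rose and Gria2, Unc13a and Sv2a fell. These 5 were 16.1% of the genes, against 7.58% of all probe sets, of which 4.65% rose and 2.93% fell. With the block 15 genes passed in INS37217, 4 up and 11 down, where 22.1% of all probe sets passed, 11.6% up and 10.5% down. In saline 19 passed with the block, 5 up and 14 down, where 29% of all probe sets did, 16.1% up and 12.9% down. The median change of the 31 genes was -0.22 in both treatments, beside -0.04 over all probe sets in both. The 24 h arrays lay wholly above or wholly below the 2 h arrays for 11 of the 31 genes in INS37217 retinas and for 16 in saline retinas, where 20.6% and 24.6% of all probe sets did so.

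**Figure D1:**
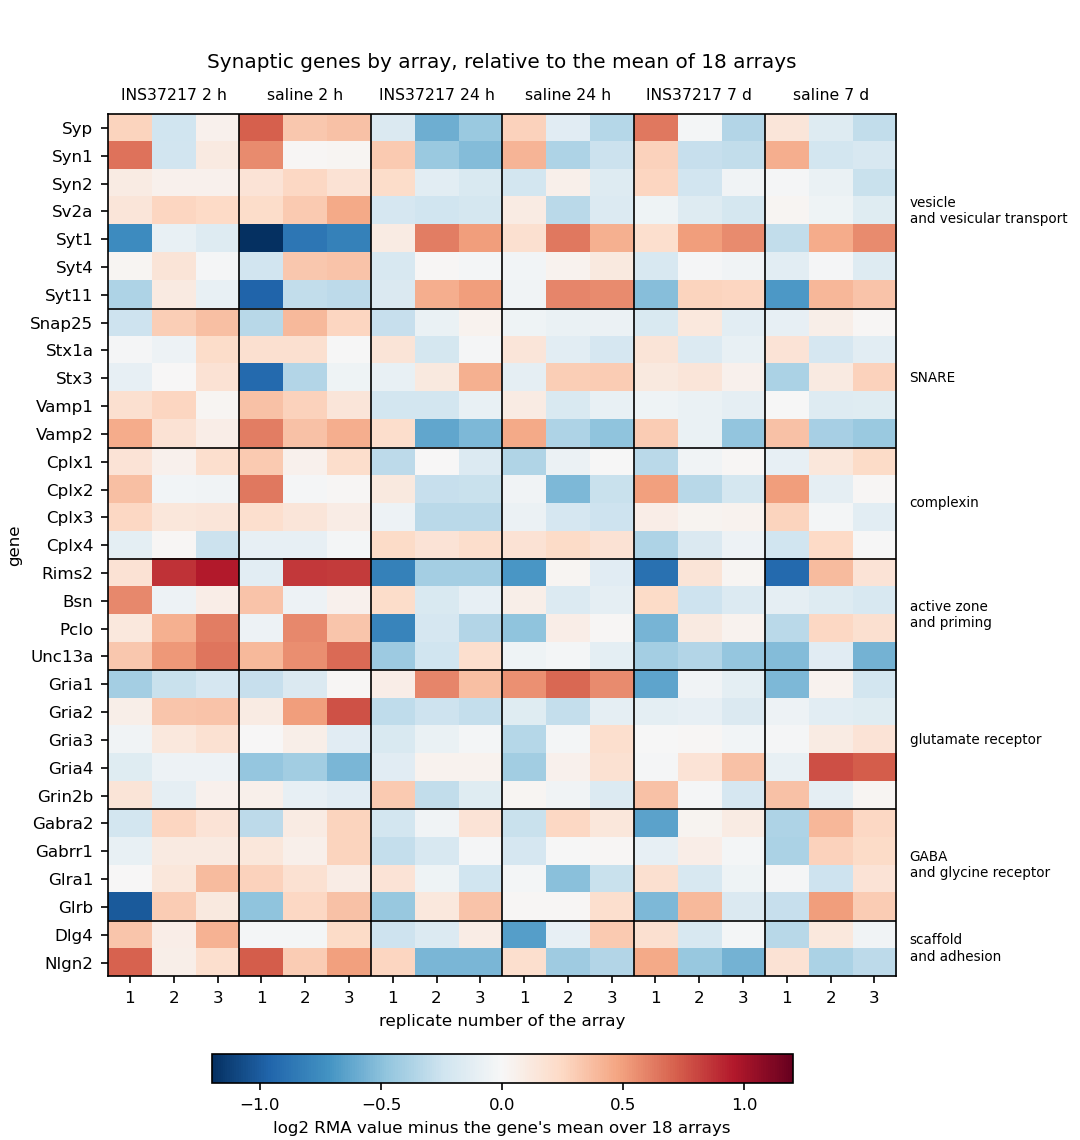
Log2 signal of each of the 31 measured genes on every array, less that gene's mean over the 18 arrays, with genes in rows by role and arrays in columns by group. The colour scale is capped, and the saline 2 h arrays of Syt1, at 8.49 to 9.45, lie below every other array of that gene.

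Among vesicle proteins Syt1, the calcium sensor of fast release, changed most. Its signals were 9.51, 10.17 and 10.11 on the INS37217 2 h arrays, and 8.49, 9.39 and 9.45 on the saline 2 h arrays. At 24 h they were 10.36, 10.88 and 10.76 with INS37217, and 10.45, 10.89 and 10.69 with saline. At 7 d they were 10.46, 10.76 and 10.83 with INS37217, and 9.97, 10.71 and 10.83 with saline. The saline 2 h arrays were the low ones, and neither the 24 h nor the 7 d saline arrays overlapped them. Syt1 was higher in saline by 1.57 at 24 h than at 2 h (SE 0.27, 2.96-fold, adjusted p = 0.0019) and by 1.39 at 7 d than at 2 h (SE 0.27, adjusted p = 0.006). Both calls held with any single array of the groups compared left out. In INS37217 retinas the same differences were 0.74 and 0.75 and passed only with the block (adjusted p = 0.15 and 0.16 without it, 9.8e-05 and 0.0001 with it). The second Syt1 probe set gave 1.69 and 1.55 in saline and 0.86 and 0.70 in INS37217.

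Sv2a, a membrane protein of nearly all synaptic vesicles, went the other way. Its signals were 8.62, 8.58 and 8.61 at 24 h against 8.97, 9.08 and 9.06 at 2 h in INS37217 retinas, and 8.92, 8.50 and 8.66 at 24 h against 9.04, 9.14 and 9.28 at 2 h in saline retinas. The times did not overlap in either treatment, and saline 24 h replicate 1 was the later array closest to its 2 h group. The fall was 0.43 in INS37217 (SE 0.11, adjusted p = 0.024) and 0.46 in saline (SE 0.11, adjusted p = 0.016). Without the block the INS37217 call was lost on leaving out any INS37217 array of either time but 2 h replicate 1 (adjusted p up to 0.09), and the saline call on leaving out replicate 2 or 3 of either time (up to 0.097). At 7 d the signals were 8.77, 8.67 and 8.61 with INS37217 and 8.85, 8.77 and 8.68 with saline, still below every 2 h array of the same treatment. Those differences from 2 h, -0.35 and -0.39, passed with the block (adjusted p = 0.021 and 0.0097) and not without it (0.087 and 0.052).

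Syt11, a synaptotagmin that does not bind calcium, had a wide spread between arrays. Its signals at 2, 24 h and 7 d were 8.29, 8.77 and 8.58, then 8.49, 9.10 and 9.17, then 8.15, 8.93 and 8.92 with INS37217. In saline retinas they were 7.70, 8.37 and 8.35, then 8.62, 9.25 and 9.23, then 7.98, 9.06 and 9.01. Replicate 1 was the lowest array in every group, and only the saline 24 h and 2 h arrays did not overlap. That difference, 0.89, had an adjusted p of 0.1 without the block and 3e-06 with it, and the INS37217 difference of 0.37 had 0.66 and 0.018. The other Syt11 probe sets gave -0.09 and -0.11, so the difference was seen with 1 of 3 probe sets. Synaptophysin (Syp), an abundant vesicle membrane protein, and synapsin 1 (Syn1), which tethers vesicles to actin, differed by -0.43 and -0.39 in INS37217 and by -0.53 and -0.28 in saline at 24 h against 2 h. All 4 differences passed with the block (adjusted p = 0.013, 0.005, 0.0021 and 0.033) and none without it (0.4, 0.61, 0.21 and 0.66). Synapsin 2 (Syn2) differed by -0.10 and -0.30, and the synaptotagmin Syt4 by -0.12 and -0.10, and neither passed with or without the block.

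Of the SNARE proteins none passed without the block. Vamp2, the main vesicle SNARE of neurons, had signals of 10.31, 9.47 and 9.56 at 24 h against 10.54, 10.27 and 10.18 at 2 h with INS37217, and 10.55, 9.73 and 9.61 at 24 h against 10.71, 10.45 and 10.53 at 2 h with saline. At 7 d they were 10.40, 10.02 and 9.62 with INS37217 and 10.45, 9.70 and 9.65 with saline. Arrays 2 and 3 were lower at both later times, while array 1 differed less from its 2 h level. The 24 h differences were -0.55 in INS37217 and -0.60 in saline (adjusted p = 0.38 and 0.26 without the block, 0.0038 and 0.0015 with it). The second Vamp2 probe set had the opposite sign in both, 0.13 in INS37217 and 0.64 in saline (adjusted p in saline 0.11 without the block and 0.0026 with it), so the direction of Vamp2 depends on the probe set.

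Syntaxin 3 (Stx3), the syntaxin of retinal ribbon synapses, had signals of 9.09, 9.19 and 9.36 at 2 h, 9.10, 9.30 and 9.61 at 24 h, and 9.30, 9.33 and 9.24 at 7 d with INS37217. The saline arrays gave 8.25, 8.83 and 9.13, then 9.08, 9.48 and 9.49, then 8.81, 9.29 and 9.46. Saline 2 h replicate 1 was the lowest array, and the later groups overlapped the 2 h arrays in both treatments. The saline difference at 24 h, 0.61, had an adjusted p of 0.1 without the block and 0.00095 with it, and the other Stx3 probe sets gave 0.09 and -0.24. Vamp1, another vesicle SNARE, differed by -0.33 in INS37217 and -0.31 in saline (adjusted p = 0.07 and 0.08 without the block, 0.014 and 0.017 with it), with its second probe set at 0.08 and 0.43 (adjusted p in saline 0.13 without the block and 0.014 with it). Snap25 and Stx1a, the partners of Vamp2 in the neuronal fusion complex, differed by -0.24 and -0.07 in INS37217 and by -0.17 and -0.19 in saline, and did not pass with or without the block.

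**Figure D2:**
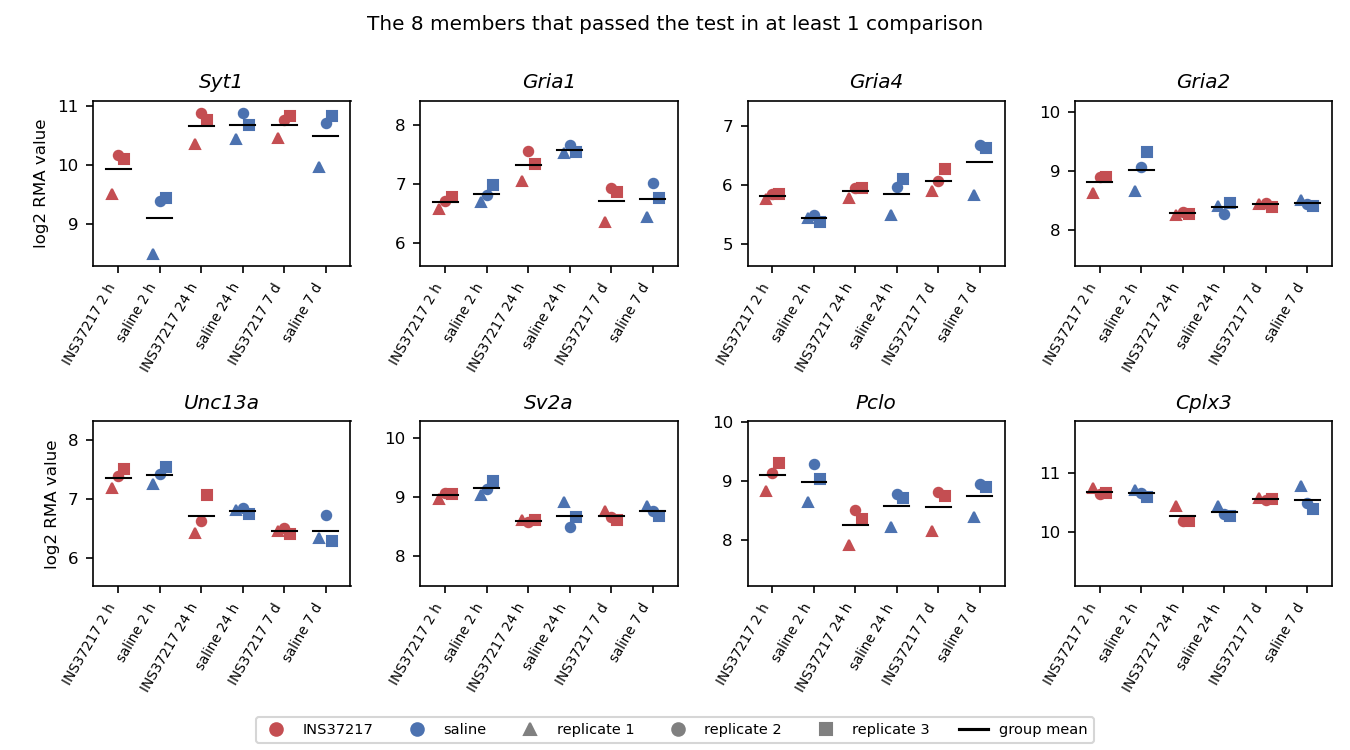
Log2 signal of the 8 genes called in at least 1 comparison, by array, with a panel for each gene, time from 2 h to 7 d along the axis, INS37217 beside saline, and a bar at each group mean of 3 arrays. Syt1 is low on the saline 2 h arrays, Unc13a is lower at both later times, and Gria1 is high at 24 h alone.

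The complexins, which bind the assembled SNARE complex, include Cplx3 and Cplx4, the forms of retinal ribbon synapses. Cplx3 had signals of 10.44, 10.18 and 10.18 at 24 h against 10.75, 10.64 and 10.65 at 2 h with INS37217, and 10.43, 10.30 and 10.26 at 24 h against 10.71, 10.65 and 10.59 at 2 h with saline. All 24 h arrays were below all 2 h arrays in each treatment. Cplx3 fell by 0.41 in INS37217 (SE 0.11, adjusted p = 0.033), a call lost on leaving out any INS37217 array of either time but 24 h replicate 1 (adjusted p up to 0.15), and the difference of -0.32 in saline passed with the block only (adjusted p = 0.098 without it, 0.0098 with it). At 7 d the signals were 10.58, 10.54 and 10.55 with INS37217 and 10.77, 10.48 and 10.38 with saline, close to those at 2 h. Cplx4 differed by 0.32 in INS37217 (adjusted p = 0.15, 0.033 with the block) and by 0.27 in saline (adjusted p = 0.23, 0.065 with the block).

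Cplx2, the complexin of conventional synapses, had signals of 9.21, 8.81 and 8.80 at 2 h, 8.96, 8.57 and 8.58 at 24 h, and 9.34, 8.51 and 8.63 at 7 d with INS37217. Saline signals were 9.48, 8.83 and 8.86, then 8.80, 8.31 and 8.58, then 9.35, 8.74 and 8.86. Array 1 was the highest in every group, and the saline 24 h arrays lay below the saline 2 h arrays. That difference of -0.49 had an adjusted p of 0.28, and of 0.00085 with the block. Cplx1 differed by -0.30 in INS37217 and -0.34 in saline, and passed in saline with the block (adjusted p = 0.16 without it, 0.027 with it).

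At the active zone all 4 measured genes were lower at 24 h and at 7 d than at 2 h in both treatments. Unc13a, which primes docked vesicles for release, fell most steadily. With INS37217 its signals were 7.19, 7.39 and 7.51 at 2 h, 6.43, 6.63 and 7.07 at 24 h, and 6.46, 6.52 and 6.41 at 7 d. With saline they were 7.26, 7.43 and 7.55, then 6.82, 6.85 and 6.75, then 6.35, 6.73 and 6.30. No later array reached the 2 h arrays of its treatment. At 24 h Unc13a fell by 0.65 in INS37217 (SE 0.15, adjusted p = 0.017) and by 0.61 in saline (SE 0.15, adjusted p = 0.025). The INS37217 call was lost on leaving out replicate 2 or 3 at 2 h or replicate 1 or 2 at 24 h (adjusted p up to 0.086), and the saline call on leaving out any saline array of either time but 2 h replicate 1 (up to 0.1). At 7 d against 2 h it fell by 0.90 in INS37217 (SE 0.15, 0.536-fold, adjusted p = 0.0019) and by 0.95 in saline (SE 0.15, 0.516-fold, adjusted p = 0.0014). Both of these calls held with any single array of the groups compared left out.

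Piccolo (Pclo), a giant scaffold of the active zone and the ribbon, had signals of 7.91, 8.50 and 8.35 at 24 h against 8.83, 9.13 and 9.31 at 2 h with INS37217, and 8.22, 8.78 and 8.71 at 24 h against 8.64, 9.28 and 9.03 at 2 h with saline. The times did not overlap in INS37217 and did in saline. Pclo fell by 0.84 in INS37217 (SE 0.24, 0.56-fold, adjusted p = 0.046), a call lost on leaving out any INS37217 array of either time but 2 h replicate 1 (adjusted p up to 0.19), and its difference in saline was -0.41 (adjusted p = 0.37, 0.002 with the block). The difference between those 2 changes at 24 h, -0.42, passed in neither fit (adjusted p = 1.0, 0.18 with the block). The second Pclo probe set gave -0.45 in INS37217 and -0.38 in saline at 24 h, past the threshold with the block only (adjusted p = 0.15 and 0.21 without it, 0.014 and 0.028 with it). At 7 d the signals were 8.14, 8.81 and 8.74 with INS37217 and 8.38, 8.95 and 8.89 with saline. 

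Rims2, which links vesicles to calcium channels, had the lowest 24 h difference of the 31 genes in both treatments, and its arrays numbered 1 were far below the rest. With INS37217 the signals were 9.15, 9.85 and 9.93 at 2 h, 8.17, 8.57 and 8.57 at 24 h, and 8.08, 9.13 and 9.0 at 7 d. With saline they were 8.85, 9.83 and 9.82, then 8.28, 9.0 and 8.84, then 8.05, 9.36 and 9.14. Each array was lower at 24 h than the same-numbered array at 2 h in both treatments. The 24 h differences were -1.21 in INS37217 and -0.79 in saline (adjusted p = 0.07 and 0.25 without the block, 3.9e-07 and 7.5e-05 with it). The second Rims2 probe set gave -0.79 and -0.91. Bassoon (Bsn), the partner scaffold of Pclo, differed by -0.22 in INS37217 and -0.18 in saline with the probe set used, which did not pass with or without the block. Its dimmer second probe set gave -0.06 in INS37217 and fell by 0.38 in saline (adjusted p = 0.037, 0.0022 with the block), so the call on Bsn depends on the probe set.

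RefSeq's promoter table listed 22 of the 31 genes, and not Syt4, Snap25, Vamp2, Cplx4, Rims2, Gria1, Gria3, Grin2b or Glra1. The promoters of 3 genes whose calls held with any array of the groups compared left out are shown. They are Unc13a, which fell at 7 d in both treatments, Gria2, which fell at 24 h in saline, and Syt1, which rose in saline. Each run holds 250 bases before to 50 bases after the start, 5′ to 3′ on the gene's strand in GRCm38.p6, and capitals mark the RE1 parts in Unc13a, the NRF1 motif in Gria2 and the GC box in Syt1, with any other match left in lower case. Unc13a lies at chr8:71671708-71672007 on the minus strand, Gria2 at chr3:80802786-80803085 on the minus strand, and the Syt1 start shown at chr10:109010926-109011225 on the minus strand. A second Syt1 start is listed, at chr10:109009062-109009361, and holds no GC box letters.
Unc13a: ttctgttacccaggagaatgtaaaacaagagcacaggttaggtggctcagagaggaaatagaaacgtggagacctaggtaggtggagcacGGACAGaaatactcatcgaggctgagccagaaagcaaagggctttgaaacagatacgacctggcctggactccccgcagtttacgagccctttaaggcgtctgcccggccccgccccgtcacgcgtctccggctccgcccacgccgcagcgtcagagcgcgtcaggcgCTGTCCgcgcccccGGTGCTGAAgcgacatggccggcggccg
Gria2: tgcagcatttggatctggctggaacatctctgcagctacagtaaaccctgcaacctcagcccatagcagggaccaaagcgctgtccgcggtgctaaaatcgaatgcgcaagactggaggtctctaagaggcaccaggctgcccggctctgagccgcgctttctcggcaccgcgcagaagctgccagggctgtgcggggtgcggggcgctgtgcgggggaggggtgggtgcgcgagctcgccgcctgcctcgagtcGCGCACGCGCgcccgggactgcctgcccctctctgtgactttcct
Syt1: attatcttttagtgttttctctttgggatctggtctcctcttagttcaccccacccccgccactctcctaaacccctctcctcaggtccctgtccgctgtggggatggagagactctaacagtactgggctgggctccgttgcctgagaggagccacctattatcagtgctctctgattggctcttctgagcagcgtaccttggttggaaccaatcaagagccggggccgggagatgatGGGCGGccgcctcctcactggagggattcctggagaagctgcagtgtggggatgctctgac

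Letters of a few known motifs were searched on both strands, and each share is of genes with the letters in at least 1 listed promoter, beside the same over all 27025 genes listed. The neuron-restrictive element RE1 has a left part, TTCAGCACC, and a right part, GGACAG, with 2 bases between. No promoter of the 22 genes held the whole element, which 0.0148% of all genes did. The left part was in those of Syn1 and Unc13a, 2 of the 22 (9.1% against 0.433%), and the right part in 6 (27.3% against 24.7%). In Unc13a the left part lies at window bases 273 to 281 and a right part at 259 to 264, both on the opposite strand and 8 bases apart, and another right part lies at 91 to 96. The NRF1 motif, GCGCA and GCGC with 1 base between, was in 5 promoters, those of Bsn, Dlg4, Gria2, Pclo and Syp (22.7% against 5.19%). In Gria2 it lies at window bases 256 to 265. The GC box GGGCGG was in 15 (68.2% against 38.2%), among them Syt1 at window bases 240 to 245. TAATCC, read by the photoreceptor factor CRX, was in 4 (18.2% against 8.14%), and the CRE TGACGTCA in 1 (4.5% against 2.03%). The matches describe letters in a window and were not tested.

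Glutamate receptor subunits moved in opposite directions. Gria1, an AMPA subunit of calcium-permeable channels when Gria2 is absent, had signals of 6.57, 6.71 and 6.78 at 2 h, 7.06, 7.57 and 7.34 at 24 h, and 6.35, 6.94 and 6.86 at 7 d with INS37217. With saline they were 6.70, 6.81 and 6.99, then 7.53, 7.67 and 7.55, then 6.44, 7.02 and 6.76. The 24 h arrays were above all 2 h and all 7 d arrays of their treatment. Gria1 rose at 24 h by 0.64 in INS37217 (SE 0.17, 1.55-fold, adjusted p = 0.039) and by 0.75 in saline (SE 0.17, 1.68-fold, adjusted p = 0.015). The first call was lost on leaving out any INS37217 array of either time but 24 h replicate 1 (adjusted p up to 0.2), and the other on leaving out saline 2 h replicate 1 or 2 or saline 24 h replicate 2 (up to 0.066). At 7 d against 24 h it fell by 0.61 in INS37217, past the threshold with the block only (adjusted p = 0.11 without it, 0.00085 with it), and by 0.84 in saline (SE 0.17, adjusted p = 0.023), lost on leaving out any saline array of either time but 7 d replicate 2 (up to 0.11). The second probe set gave 0.52 in INS37217 (adjusted p = 0.033) and 0.39 in saline (adjusted p = 0.11, 0.018 with the block) at 24 h against 2 h. At 7 d against 24 h it gave -0.41 in INS37217 (adjusted p = 0.23, 0.039 with the block). In saline it gave -0.30 and passed in neither fit (adjusted p = 0.59, 0.14 with the block).

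Gria2, the subunit that makes AMPA receptors impermeable to calcium, had signals of 8.64, 8.90 and 8.91 at 2 h, 8.26, 8.32 and 8.28 at 24 h, and 8.45, 8.47 and 8.39 at 7 d with INS37217. In saline retinas the signals were 8.67, 9.07 and 9.33, then 8.42, 8.28 and 8.46, then 8.51, 8.44 and 8.42. All later arrays were below all 2 h arrays of their treatment. Gria2 fell at 24 h by 0.53 in INS37217 (SE 0.13, adjusted p = 0.025) and by 0.64 in saline (SE 0.13, 0.643-fold, adjusted p = 0.0077). The saline call held with any saline array of either time left out. The INS37217 one was lost on leaving out any INS37217 array of either time but 2 h replicate 1 (adjusted p up to 0.11). At 7 d against 2 h the difference was -0.38 in INS37217 (adjusted p = 0.15, 0.029 with the block), and in saline it fell by 0.57 (SE 0.13, adjusted p = 0.02), lost on leaving out replicate 2 or 3 of either time (up to 0.11). The second probe set gave -0.40 in INS37217 at 24 h, which passed in neither fit (adjusted p = 0.25, 0.062 with the block). In saline it fell by 0.77 (adjusted p = 0.013). At 7 d against 2 h it gave -0.32 in INS37217 (adjusted p = 0.46, 0.16 with the block) and fell by 0.82 in saline (adjusted p = 0.011).

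Gria4, another AMPA subunit, had signals of 5.77, 5.85 and 5.85 at 2 h, 5.78, 5.96 and 5.96 at 24 h, and 5.90, 6.08 and 6.27 at 7 d with INS37217. The saline arrays had 5.45, 5.50 and 5.37, then 5.50, 5.97 and 6.10, then 5.83, 6.69 and 6.64. The signal of Gria4 was low, with a mean over the 18 arrays of 5.91, under the median probe set at 6.73. Saline 2 h arrays 1 and 3 were the lowest, and saline 2 h array 2 was level with saline 24 h array 1. Saline 7 d arrays 2 and 3 were the highest. The saline difference at 24 h against 2 h, 0.42, passed with the block only (adjusted p = 0.26 without it, 0.025 with it). Gria4 rose in saline at 7 d against 2 h by 0.95 (SE 0.20, 1.93-fold, adjusted p = 0.0089), a call lost on leaving out saline 7 d replicate 2 or 3 (up to 0.061). In INS37217 the same difference was 0.26 (adjusted p = 0.66, 0.20 with the block), and the difference between those 2 changes, -0.69, did not pass (adjusted p = 1.0, 0.12 with the block). Gria3 and the NMDA subunit Grin2b differed by -0.18 and -0.08 in INS37217 and by -0.04 and 0.00 in saline at 24 h, and the probe sets used did not pass with or without the block. The second Grin2b probe set gave -0.10 in INS37217 and -0.34 in saline, the saline one past the threshold with the block (adjusted p = 0.58 without it, 0.03 with it).

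No GABA or glycine receptor subunit passed without the block. Glra1, a glycine receptor subunit of low signal, had 4.73, 4.86 and 5.10 at 2 h, 4.89, 4.67 and 4.49 at 24 h, and 4.92, 4.53 and 4.67 at 7 d with INS37217. With saline it had 5.00, 4.91 and 4.81, then 4.70, 4.22 and 4.46, then 4.71, 4.48 and 4.89. Its saline difference at 24 h, -0.45, had an adjusted p of 0.11 and of 0.012 with the block, and the INS37217 arrays overlapped between times. Gabrr1, the rho subunit of GABA receptors on bipolar cell terminals, differed by -0.20 in INS37217 and -0.22 in saline. Gabra2 differed by -0.10 and 0.02, and Glrb, which anchors glycine receptors, by 0.20 and 0.04.

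The probe sets used for the scaffold group did not pass either. Dlg4, or PSD-95, which anchors receptors in many neurons and lies in photoreceptor terminals of the retina, had signals of 9.15, 8.90 and 9.24 at 2 h, 8.57, 8.66 and 8.91 at 24 h, and 9.01, 8.63 and 8.80 at 7 d with INS37217. With saline it had 8.80, 8.80 and 9.05, then 8.16, 8.72 and 9.13, then 8.49, 8.95 and 8.78. The groups overlapped for this probe set, and its 24 h differences were -0.38 in INS37217 and -0.21 in saline. Of the other Dlg4 probe sets, the dimmest fell in INS37217 by 0.94 at 24 h and by 0.73 at 7 d against 2 h (adjusted p = 0.0017 and 0.014), and gave -0.28 and -0.34 in saline. The remaining one, nearly as bright as the one used, gave -0.48 in INS37217 and -0.59 in saline at 24 h (adjusted p = 0.16 and 0.059 without the block, 0.0015 and 0.00017 with it). Nlgn2, an adhesion protein of inhibitory synapses, had 9.58, 8.95 and 9.08 at 2 h, 9.13, 8.33 and 8.33 at 24 h, and 9.33, 8.42 and 8.31 at 7 d with INS37217. With saline it had 9.60, 9.18 and 9.37, then 9.08, 8.45 and 8.52, then 9.05, 8.50 and 8.56. Array 1 was the highest in all 6 groups, and the saline arrays at both later times lay below those at 2 h. The 24 h differences were -0.61 in INS37217 and -0.70 in saline (adjusted p = 0.31 and 0.18 without the block, 0.00042 and 7.4e-05 with it).

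Later intervals held fewer calls. At 7 d against 24 h none of the 31 genes passed in INS37217, where 2.21% of all probe sets did. An unadjusted p under 0.05 was reached there by 3, Cplx3, Cplx4 and Gria1, and by 1844 of all 22626 probe sets. In saline Gria1 alone fell, 3.2% of the genes, against 1.31% of all probe sets, of which 0.977% fell. With the block 5 genes passed in INS37217, with Syp, Cplx3 and Pclo up and Cplx4 and Gria1 down (7.66% of all probe sets), and 3 in saline, with Cplx2 and Gria4 up and Gria1 down (7.37%). The INS37217 differences gained with the block were 0.49 for Syp (adjusted p = 0.63 without it, 0.012 with it), 0.29 for Cplx3 (0.36 and 0.049), 0.31 for Pclo (1.0 and 0.043) and -0.40 for Cplx4 (0.13 and 0.02), beside Gria1 above. In saline they were 0.42 for Cplx2 (0.77 and 0.012) and 0.53 for Gria4 (0.36 and 0.018). The groups did not overlap for 4 genes in INS37217 (Cplx3, Cplx4, Gria1 and Gria2) and 2 in saline (Unc13a and Gria1), where 10.7% and 11.6% of all probe sets did not.

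At 7 d against 2 h Unc13a alone fell in INS37217, 3.2% of the genes, against 4.91% of all probe sets, of which 2.51% rose and 2.39% fell. In saline Syt1 and Gria4 rose and Unc13a and Gria2 fell, 12.9% of the genes, against 5.44% of all probe sets, of which 2.7% rose and 2.74% fell. With the block 1 gene rose and 6 fell in INS37217, where 17.9% of all probe sets passed, 9.21% up and 8.68% down. In saline 4 rose and 8 fell with it, where 21.9% passed, 12.3% up and 9.59% down. Beside Syt1, Sv2a and Gria2 above, the block gained Rims2 in INS37217 at -0.91 (adjusted p = 0.24 without it, 2.5e-05 with it), Pclo at -0.53 (0.31 and 0.00033) and Nlgn2 at -0.52 (0.47 and 0.0024). In saline, beside Sv2a above, it gained Syp at -0.57 (0.21 and 0.0016), Vamp1 at -0.36 (0.052 and 0.0081), Vamp2 at -0.63 (0.28 and 0.0012), Rims2 at -0.65 (0.45 and 0.00077) and Nlgn2 at -0.68 (0.23 and 0.00014). It also gained Syt11 at 0.54 (0.45 and 0.001) and Stx3 at 0.45 (0.3 and 0.013), both higher at 7 d. Other probe sets of Vamp2, Vamp1 and Stx3 had the opposite sign in saline, at 0.58, 0.43 and -0.38. The other Syt11 probe sets gave -0.10 and -0.06 in saline, so its rise was seen only with the probe set used. The second Stx1a probe set gave -0.36 in saline (0.15 and 0.014). The groups did not overlap for 10 genes in each treatment, where 16.4% of all probe sets in INS37217 and 17.4% in saline did not.

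The release group and the receptor group were set side by side as the mean signal of each on every array, centred on the 18 arrays. The release mean of the 20 genes was 0.14 ± 0.03 in INS37217 and 0.10 ± 0.08 in saline at 2 h (SD, n = 3 each). At 24 h it was -0.11 ± 0.03 in INS37217 and -0.03 ± 0.02 in saline, and at 7 d it was -0.06 ± 0.02 in INS37217 and -0.04 ± 0.06 in saline. The 24 h arrays lay below the 2 h arrays of the same treatment. Between same-numbered arrays the change at 24 h was -0.22, -0.27 and -0.26 in INS37217 and -0.02, -0.18 and -0.21 in saline. The receptor mean of the 9 genes was 0.01 ± 0.17, -0.04 ± 0.07 and -0.06 ± 0.10 in INS37217, and 0.02 ± 0.11, 0.00 ± 0.09 and 0.06 ± 0.19 in saline, in time order, and all groups overlapped. Outside the 31 genes the differences at 24 h against 2 h were alike in size for both kinds: 26 other receptor genes had medians of -0.18 in INS37217 and -0.24 in saline, and 36 other release genes had -0.22 and -0.20. The 2 groups also differ in signal level. Glra1, Gria4, Gabra2, Grin2b, Glrb and Gria3 had means of 4.72 to 6.51 over the 18 arrays, under the median probe set at 6.73. Of the release genes only Bsn lay under it, at 6.64. The part of signal level in the class means was not tested. The mean of a group hides opposite changes such as those of Gria1 and Gria2. No p is given because the genes were listed with results known.

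**Figure D3:**
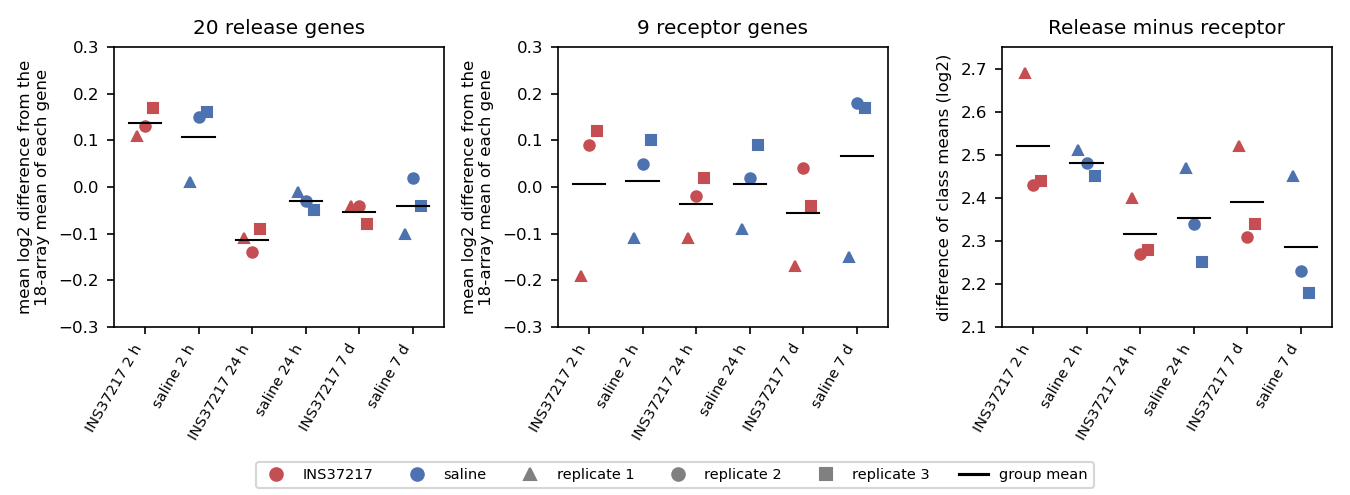
Mean log2 signal of the 20 release genes and of the 9 receptor genes on each array, centred on the mean of the 18 arrays, and the difference of the 2 uncentred means, in 3 panels by time and treatment, with points for arrays and bars for group means. The release mean drops between 2 h and 24 h, by 0.25 in INS37217 and 0.14 in saline, and the receptor means of these 9 genes overlap at all times.

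Between treatments no member passed at any time without the block. At 2 h the differences ran from -0.44 to 0.82 with a median of -0.05, and 0.128% of all probe sets passed. At 24 h they ran from -0.33 to 0.22 with a median of -0.07 (0.119% of all), and at 7 d from -0.30 to 0.19 with a median of -0.02 (0.15% of all). An unadjusted p under 0.05 was reached by Syt1 and Stx3 at 2 h, 2 genes, and by none at 24 h or 7 d. Of all 22626 probe sets, 798 reached it at 2 h, 709 at 24 h and 466 at 7 d. Stx3 differed by 0.48 at 2 h with the probe set used, while its other probe sets gave -0.33 and -0.31. With the block Syt1 alone passed at 2 h, higher in INS37217 by 0.82 (95% interval 0.24 to 1.4 without the block, adjusted p = 0.82 without it and 0.0004 with it), where 1.76% of all probe sets passed. The second Syt1 probe set gave 0.85. No member passed with the block at 24 h or 7 d, where 0.888% and 0.641% of all probe sets did. All 3 INS37217 2 h arrays of Syt1 lay above all 3 saline 2 h arrays, as was so of Gria4, while Syp and Syn2 lay wholly below. These 4 genes are 12.9% of the 31, and 7.69% of all probe sets did not overlap. None was apart at 24 h or 7 d, where 7.48% and 3.93% of all probe sets were. The change of the treatment difference between times passed for no member without the block, where 0.0575% (24 h against 2 h), 0.0398% (7 d against 24 h) and 0.0884% (7 d against 2 h) of all probe sets did. With the block it passed for Syt1 at 24 h against 2 h, at -0.83 (adjusted p = 1.0, 0.016 with the block), and the 3 shares were 1.07%, 0.274% and 0.835%. Without the block the intervals of Rims2 at 24 h, -1.06 to 0.52, and of Syt11 at 2 h, -0.25 to 1.07, reach past 1 in size. A missed threshold thus does not show that the treatments act alike on those genes. For Syt11 at 2 h, at 0.41, the SE was 0.31 without the block and 0.11 with it, and the difference did not pass with it (adjusted p = 0.066).

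**Figure D4:**
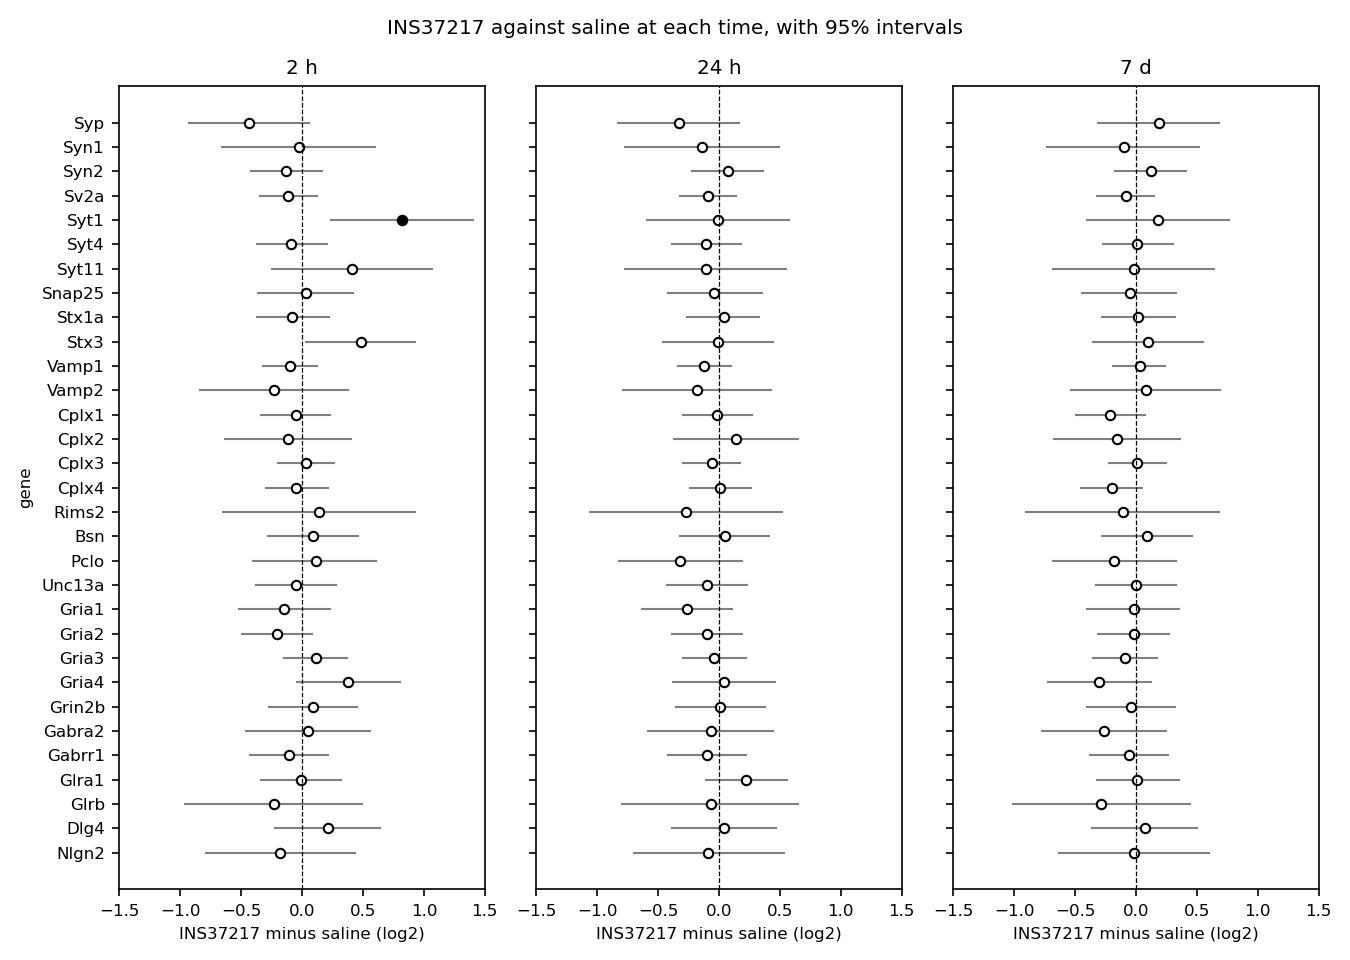
Log2 difference INS37217 minus saline for the 31 genes at 2 h, 24 h and 7 d, with bars for the 95% interval of the fit without the block and a filled point where the gene passed with it. Syt1 at 2 h is the only filled point, at 0.82.

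The saline 2 h arrays also stood apart in measures that touch the saline comparisons with 2 h and the treatment comparison at 2 h, Syt1 included. The 3′ to 5′ difference of the actin control probe sets, a sign of RNA quality, averaged 0.75 (0.70 to 0.78) in INS37217 2 h and 1.04 (0.93 to 1.10) in saline 2 h, and 0.60 to 0.65 in the later groups. In INS37217 too the 2 h arrays lay above the 24 h arrays, at 0.61 to 0.65, while those at 7 d had 0.46 to 0.70. The actin measure thus touches the INS37217 comparisons with 2 h as well. The mean of 8 lens markers was 11.94 to 12.02 in INS37217 2 h and 11.29 to 11.48 in saline 2 h. At 24 h the lens mean was 11.99 to 12.03 in INS37217 and 11.95 to 12.09 in saline. At 24 h against 2 h none of the 8 lens markers passed in INS37217 (median 0.04), and 7 rose in saline (median 0.54). By 7 d, again against 2 h, 1 of the 8 rose in INS37217 and 7 in saline. The part of either measure in the synaptic differences was not tested.

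Other synaptic genes were read from a longer list. At 24 h against 2 h, of 80 measured, 5 fell in INS37217 and none rose, 6.2% against 6.52% of all probe sets, and 6 fell and 1 rose in saline, 8.8% against 7.58%. With both directions counted, these shares were near those of all probe sets. By direction, 3.23% of all probe sets rose and 3.3% fell in INS37217, and 4.65% rose and 2.93% fell in saline. In both treatments the 80 genes thus fell more often, and rose less often, than all probe sets. With the block 24 fell and 1 rose in INS37217, 31.2% against 22.1%, and 21 fell and 8 rose in saline, 36.2% against 29%. Cacna1f, the calcium channel of photoreceptor ribbons, fell by 1.15 in INS37217 (SE 0.16, adjusted p = 0.00021) and by 0.85 in saline (SE 0.16, adjusted p = 0.0031). Doc2b, a calcium sensor of spontaneous release, fell by 0.98 in INS37217 (adjusted p = 8.5e-05) and by 0.65 in saline (adjusted p = 0.0035), and at 7 d against 24 h it rose by 0.84 and 0.60. Cadm1, a synaptic adhesion protein, fell by 0.66 and 0.88, and the dopamine receptor Drd4 fell by 0.97 in INS37217. Syngr3, a vesicle protein, rose by 0.44 in saline. At 7 d against 2 h Nptx1, a secreted protein that clusters AMPA receptors, fell by 0.64 in INS37217 and 0.71 in saline, and Gabrb2 rose by 0.62 in saline. None of the 80 passed between treatments at any time, and with the block the calcium channel subunit Cacnb2 passed at 2 h, at 0.55 (adjusted p = 0.0061).

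Marker genes of the retinal cell types differed with time to unequal degrees. The background for these counts at 24 h against 2 h is 3.23% of all probe sets up and 3.3% down in INS37217, and 4.65% up and 2.93% down in saline. Of 9 rod markers 6 fell in INS37217 and 4 in saline (medians -0.58 and -0.35), and of 7 cone markers 5 fell in INS37217, and 3 fell and 1 rose in saline (-0.96 and -0.46). Of 8 bipolar markers 2 fell in INS37217 and none in saline (-0.34 and -0.24). Of 11 amacrine and horizontal markers none passed in INS37217 and 1 fell in saline (-0.26 and -0.31), and of 9 ganglion cell markers 1 rose in INS37217 and none passed in saline (-0.20 and -0.07). Of 10 Mueller glia markers 5 fell and 1 rose in each treatment (-0.62 and -0.19). Of 9 markers of reactive glia 5 rose in INS37217, and 7 rose and 1 fell in saline (1.29 and 1.28). Of 12 markers of microglia and macrophages 7 rose in INS37217 and 4 in saline (0.52 and 0.36). The mean rod signal was 11.47 to 11.56 at 24 h against 11.99 to 12.27 at 2 h in INS37217, and 11.52 to 11.58 against 11.91 to 12.21 in saline. In a bulk retina fewer cells of a type and less RNA per cell cannot be told apart, and the part of cell make-up in the synaptic changes was not tested.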

How the data were processed

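Values were log2 signals of 18 Affymetrix arrays that the authors deposited, computed by RMA per the submitters' processing notes (version not given in the sources used here). Nothing was normalized again for the results of the report. The values ran from 2.83 to 14.15. After 64 control probe sets were left out, 22626 probe sets entered 1 fit in limma 3.58.1 (R 4.3.3), by lmFit and eBayes, with 1 mean per group over all 18 arrays (12 residual degrees of freedom), p-values adjusted by Benjamini and Hochberg, threshold 0.05. Every p in the text is limma's. Of the probe sets 20380 had 1 gene, 691 several and 1555 none. Promoter sequences are RefSeq's, GRCm38.p6.

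Groups follow the titles of the samples, although the source names of 8 of the 9 INS37217 arrays mention saline alone. Whether the replicate numbers pair arrays was checked on deviations from group means. There 45 same-number pairs correlated at 0.426 to 0.921, and pairs of array 1 with 2 or 3 at -0.847 to -0.501. Pairs of arrays 2 and 3 from other groups correlated at 0.363 to 0.725. The check thus set array 1 apart and did not separate 2 from 3. The number was taken as a block with all 3 numbers kept separate (10 residual degrees of freedom). What it stands for is not given in the labels. Having 3 arrays a group limits the precision, and p-values measure the spread between these pools.

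The members and lists were chosen with earlier results of these data known. Every array is given for members called in at least 1 of 9 comparisons and for the 2 of largest change in each of 7 roles, up to 16 genes; 17 qualified and Glrb was left out. Up to 4 other synaptic genes per direction were named in a comparison. The fit was also run on simulated data. That check asked for little bias and for the largest added changes to be found, and does not show the power for smaller ones.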

Additional observations from a re-analysis of the deposited data

Results flagged for a closer look

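For Syt1 the INS37217 minus saline difference at 24 h, less that at 2 h, was -0.83. It was singled out because the effect of the agent differed between times in the fit with the replicate block (adjusted p = 0.016), but not in the fit without it (adjusted p = 1.0). The agent's difference was -0.01 at 24 h and 0.82 at 2 h. The saline 2 h arrays, 8.49, 9.39 and 9.45, were the low ones, and they also had the highest 3′ to 5′ actin difference, 0.93 to 1.10. The part of RNA quality in it was not tested.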

How the results depend on the processing

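The counts of genes called moved with the replicate block and with the choice of arrays. With the replicate block they were 1 for INS37217 against saline at 2 h, 15 and 19 for INS37217 and saline at 24 h against 2 h, 5 and 3 at 7 d against 24 h, 7 and 12 at 7 d against 2 h, and 1 for the agent by time at 24 h against 2 h. No other call changed with the block, and none of the 17 called differences was lost. With only replicates 2 and 3 the same counts were 1, 15 and 19, 3 and 2, 10 and 14, and 2 for the agent by time at 7 d against 2 h. When a fit held the arrays of its own pair of groups alone, 1 gene was called in INS37217 at 24 h against 2 h, and 3, 0 and 1 in saline at 24 h against 2 h, 7 d against 24 h and 7 d against 2 h, where fewer arrays estimate the spread. Quantile normalization called 2 genes in INS37217 at 7 d against 2 h and ended 3 of the 17 calls, Sv2a in INS37217 and saline and Cplx3 in INS37217, all at 24 h against 2 h (adjusted p = 0.12, 0.052 and 0.17). Equal array medians ended 1, and so did eBayes with trend and robust settings, in both cases Pclo in INS37217 at 24 h against 2 h (adjusted p = 0.05 and 0.051). The mean of a gene's probe sets called 1 at 7 d against 24 h and 2 at 7 d against 2 h in INS37217, and turned the sign of Vamp1 (0.06) and Vamp2 (0.02) in saline at 24 h against 2 h, and of Stx3 (-0.08) and Vamp1 (0.03) in saline at 7 d against 2 h. Leaving out 1 array of the groups compared gave 0 to 4 genes in INS37217 at 24 h against 2 h. In saline it gave 2 to 5 at 24 h against 2 h, 0 to 1 at 7 d against 24 h, and 2 to 5 at 7 d against 2 h. It left 5 calls standing throughout (Syt1 at both times and Gria2 at 24 h in saline, Unc13a at 7 d in both treatments) and ended 12 of 17 for at least 1 array. The release minus receptor level of 2.39, which depends on the probes, was 1.95 with the mean of probe sets and 2.37 to 2.40 when 1 array was left out. With probe sets above the median level it was 0.93, over fewer genes. That setting drops Bsn from the release genes, and Glra1, Gria4, Gabra2, Grin2b, Glrb and Gria3 from the receptor genes. The causes were not tested.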
